A study of Mus musculus with 18 samples.

Results

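The transcriptome of antigen-primed CD8+ T cells cultured with IL-7 was compared directly with that of the same cells cultured with IL-21. The samples were chosen by their titles, 3 arrays of IL-7 and 3 of IL-21 out of 18 arrays in the series, and the comparison covers all 18194 genes that the arrays could name. IL-7-treated cells held more mRNA for lymphotoxin alpha, for RANKL, for the survival factor BCL2 and for the signalling inhibitor SOCS2, and less for the cytotoxic proteins granzyme A and perforin, for the cytokine IL-10 and for the signalling inhibitor SOCS3, than IL-21-treated cells. Of the 18194 genes, 739 (4.06%) were higher and 879 (4.83%) were lower with IL-7 than with IL-21.

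The cells were OT-I CD8+ T cells from the spleens of male OT-I Thy1.1 TCR Tg mice, whose transgenic T cell receptor recognises a peptide of ovalbumin, so all samples share 1 specificity. They were primed for 48 hours on irradiated, peptide-pulsed splenocytes of wild-type C57BL/6 mice, enriched for viable cells on Ficoll, and reseeded for 24 hours with IL-7 at 100 ng/ml, with IL-21 at 100 ng/ml or in plain medium (media control). Each group holds 3 biological replicates, and whether these are separate mice or cultures is not given in the sources used here, so the p-values measure the spread between these samples. RNA of replicates 1 and 2 was extracted with RNeasy and that of replicate 3 with TRIzol and Direct-zol, in every group alike.

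Both cytokines bind receptors that contain the common gamma chain and signal through the kinases JAK1 and JAK3. IL-7, which stromal cells supply and which keeps naive and memory T cells alive, acts mainly through the transcription factor STAT5, whose known targets include Cish, Socs2 and Bcl2. IL-21, which helper T cells make, acts mainly through STAT3, whose known targets include Socs3 and Bcl6, and it is known for raising the cytotoxic program of CD8+ T cells. Dimers of both STAT factors bind the palindrome TTCNNNGAA, where N is any base.

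The promoters of 4 genes are shown because they carry this palindrome and their mRNAs lay on opposite sides of the comparison. Each runs from 250 bases before to 50 after a transcription start (RefSeq, build GRCm38.p6), reads 5′ to 3′ on the gene's own strand and has the palindrome in capitals. Cish lies at chr9:107296409-107296708 on the plus strand, Lta at chr17:35205302-35205601, Socs3 at chr11:117969317-117969616 and Bcl6 at chr16:23981234-23981533, these 3 on the minus strand.
Cish: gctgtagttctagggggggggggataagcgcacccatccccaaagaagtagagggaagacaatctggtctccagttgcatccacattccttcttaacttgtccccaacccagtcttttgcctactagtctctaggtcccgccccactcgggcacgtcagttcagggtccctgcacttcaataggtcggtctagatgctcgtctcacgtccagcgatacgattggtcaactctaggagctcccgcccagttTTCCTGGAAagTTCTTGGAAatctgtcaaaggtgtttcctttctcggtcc
Lta: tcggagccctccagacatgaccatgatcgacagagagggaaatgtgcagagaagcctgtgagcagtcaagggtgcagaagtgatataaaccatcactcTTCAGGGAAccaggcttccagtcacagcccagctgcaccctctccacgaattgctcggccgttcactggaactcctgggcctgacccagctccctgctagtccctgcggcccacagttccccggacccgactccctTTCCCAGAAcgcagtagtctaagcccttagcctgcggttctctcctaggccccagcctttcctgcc
Socs3: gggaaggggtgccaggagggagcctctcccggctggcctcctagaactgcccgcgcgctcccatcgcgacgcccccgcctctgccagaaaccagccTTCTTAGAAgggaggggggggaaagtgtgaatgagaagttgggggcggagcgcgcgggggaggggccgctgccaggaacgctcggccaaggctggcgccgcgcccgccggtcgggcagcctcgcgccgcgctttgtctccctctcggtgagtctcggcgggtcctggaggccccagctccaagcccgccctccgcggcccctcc
Bcl6: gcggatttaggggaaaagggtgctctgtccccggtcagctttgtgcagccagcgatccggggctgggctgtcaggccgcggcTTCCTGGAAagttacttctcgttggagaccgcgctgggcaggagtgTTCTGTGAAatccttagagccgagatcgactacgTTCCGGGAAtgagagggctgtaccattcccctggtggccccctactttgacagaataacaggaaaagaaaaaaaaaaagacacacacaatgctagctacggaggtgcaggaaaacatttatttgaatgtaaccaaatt
Counted from the start as base 1, the palindrome begins at bases 1 and 12 in Cish, at -152 and -16 in Lta, at -154 in Socs3 and 3 times between -168 and -88 in this start of Bcl6, and at -118 in another start of Bcl6. Cish and Lta had higher mRNA with IL-7 and Socs3 and Bcl6 had lower mRNA with IL-7, as described further on. Among the 14453 genes with a promoter sequence, 8.57% held the palindrome, against 9.01% of 577 genes higher and 10.04% of 717 genes lower with IL-7. A match of letters does not show that a factor binds there.

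Levels are log2 values after a renewed quantile normalization of all 18 arrays, so that 1 unit is a doubling, and a difference is always IL-7 minus IL-21. Replicate 3 of media control, of IL-2 and of IL-15 lay on a lower scale as deposited (array medians 4.47 to 4.52), while the 6 arrays compared here lay between 5.76 and 5.84. The fit over all 18 arrays without this step called 35 genes higher and 96 lower with IL-7. Leaving out the 3 arrays gave 1521 and 1282 as deposited and 1361 and 1394 after quantile normalization. The direct difference between IL-7 and IL-21 is taken between the 6 arrays compared. The 3 arrays on the lower scale still enter the shared normalization, the choice of probe set and the spread behind each SE and p. A gene was called background-like under 6.998, the level under which 95% of 40 tissue genes that T cells do not need lay, and the size of a difference from such a level is not exact. This holds for every gene below with a group mean under 6.998, whether or not it is marked again. The median difference over all genes was -0.01. RNA came from whole cultures, in which fewer cells of a kind and less RNA per cell cannot be told apart.

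Both groups carried the markers of CD8+ T cells. None of 8 CD8 T cell markers passed the test, with differences between -0.24 and 0.15, and Cd8a averaged 11.66 ± 0.35 with IL-7, against 11.52 ± 0.26 with IL-21 (SD, n = 3 each). Of other cells, 4 defining genes lay under the background level with both cytokines: Cd4, Cd79a of B cells, Csf1r of macrophages and Ncr1 of NK cells had means of 6.08, 5.17, 6.42 and 4.05 with IL-7, against 6.17, 5.35, 6.61 and 4.17 with IL-21. Other markers of such cells were above it. Averaged over the 18 arrays, 3 of 15 myeloid, 2 of 11 B cell, 1 of 9 dendritic cell and 4 of 8 NK cell markers exceeded the background level. Of 8 NK cell markers 2 were lower, Gzma and Nkg7, which CD8+ T cells also express, and 1 was higher, Eomes, which was lost without any 1 of the IL-7 arrays or IL-21 replicate 3 (adjusted p 0.0509 to 0.148). Of 4 CD4 T cell markers 1 was lower, Zbtb7b (-0.41), which was lost without any 1 of the 6 arrays (adjusted p 0.0504 to 0.144). None of 11 B cell, 9 dendritic cell and 5 red cell markers passed. Of 15 myeloid markers 1 was lower with IL-7, Itgam, which is under background (-0.80) and was lost without IL-7 replicate 1 or 2 and without IL-21 replicate 2 or 3 (adjusted p 0.0533 to 0.104), and 14 of the 15 had a negative difference, with a median of -0.22; the part of residual splenocytes in this was not tested. None of 13 housekeeping genes passed, and of the 40 tissue genes 1, Mbp, was higher with IL-7 (0.56), though not without IL-7 replicate 1 or 3 or IL-21 replicate 3 (adjusted p 0.0553 to 0.0710). The reference genes Actb and Gapdh differed by -0.01 and -0.02, but both lay near the top of the scale (means 14.7 and 14.5 with IL-7). There quantile normalization gives the highest ranks of every array the same values, and Actb differed by 0 in pairs 2 and 3. These 2 differences are therefore no separate control.

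**Figure D1:**
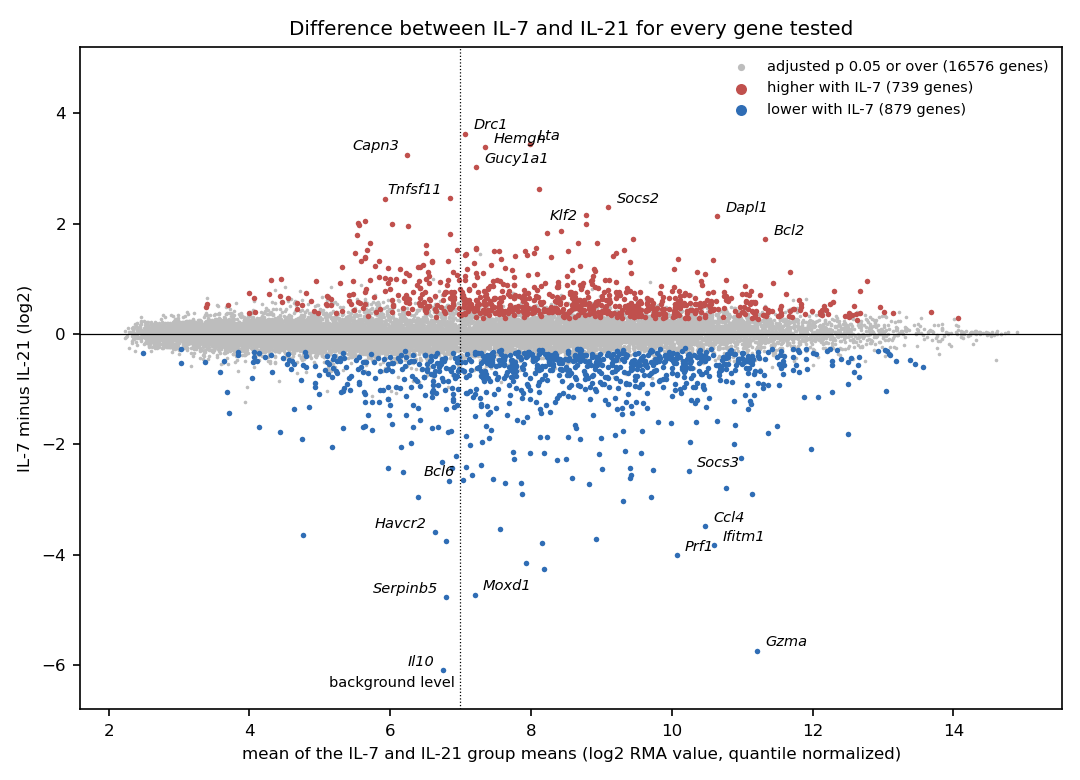
Difference between IL-7 and IL-21 (vertical axis, log2) against the mean of both group means (horizontal axis, log2) for 18194 genes. Red points, 739 genes higher with IL-7; blue points, 879 genes lower with IL-7; the dotted line is the background level of 6.998. The blue points reach -6.09 (Il10) and the red points 3.63 (Drc1).

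The genes lower with IL-7 included the larger differences. Among them 210 differed by 1 or more on the log2 scale, 56 by 2 or more and 16 by 3 or more, against 97, 13 and 5 of the genes higher with IL-7. The median difference was -0.63 for the 879 genes lower and 0.55 for the 739 genes higher. All 3 replicate pairs went in the direction of the fit for 877 and 738 of them. Passing a test with the replicate number as a block favours such pairs, so this is no separate support. The 3 arrays of IL-7 did not overlap those of IL-21 for 672 of the genes lower and 534 of the genes higher with IL-7, and over all genes the groups did not overlap for 16.9%. Both group means lay at or under the background level for 155 of the genes lower and 114 of the genes higher. The gene lists described next, and their members, were chosen with earlier results of these data known. Their counts stand beside the shares over all genes, 4.06% higher and 4.83% lower with IL-7.

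The SOCS family, inhibitors that STAT factors induce and that dampen JAK and STAT signalling, divided between the 2 cytokines. Socs2 was at 9.95, 9.79 and 10.999 in IL-7 replicates 1, 2 and 3, against 7.70, 7.62 and 8.53 with IL-21 and 7.47, 6.43 and 7.29 in media control. Every IL-7 array thus lay above every IL-21 array, and the difference was 2.29 (SE 0.38, adjusted p = 0.00118). Cish, the family member that binds activated cytokine receptors, was at 11.22, 11.10 and 10.72 with IL-7, against 10.07, 10.13 and 9.62 with IL-21 and 8.28, 8.32 and 7.68 in media control, a difference of 1.08 (SE 0.27, adjusted p = 0.0218). Here the groups did not overlap either, and both cytokines lay above every media control array. The test of Cish was no longer passed without any single one of IL-7 replicates 1, 2 and 3 or of IL-21 replicates 1 and 2, where the adjusted p ran between 0.0549 and 0.0966 and the difference between 0.96 and 1.15. Socs3, which blocks signalling of gp130 receptors, was the reverse of Socs2: 8.61, 9.56 and 8.82 with IL-7, against 10.94, 12.07 and 11.44 with IL-21 and 8.0, 9.20 and 8.12 in media control, a difference of -2.48 (SE 0.14, adjusted p = 3.28e-08). No IL-7 array reached an IL-21 array. The other members did not pass: Socs1 differed by 0.44 (adjusted p = 0.105), Socs5 by -0.30 (adjusted p = 0.0926), and Socs4, Socs6 and Socs7 by 0.07, -0.09 and 0.18.

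Of 7 measured receptor chains of the family, 2 were lower with IL-7 and none was higher. Il21r, the private chain of the IL-21 receptor, was at 8.58, 8.73 and 8.35 with IL-7, against 10.10, 10.02 and 9.60 with IL-21 and 8.30, 8.66 and 8.77 in media control. All 3 IL-21 arrays were above all other 6, with a difference of -1.36 (SE 0.17, adjusted p = 9.76e-05). Il7r, the private chain of the IL-7 receptor, did not pass (-0.08, SE 0.20, adjusted p = 0.898), and it averaged 11.17 ± 0.27 with IL-7, against 11.25 ± 0.65 with IL-21 and 12.01 ± 0.30 in media control. Both cytokines lowered it against media control, IL-7 by a difference of -0.84 (adjusted p = 0.0102) and IL-21 by one of -0.77 (adjusted p = 0.0117). Il2ra, the alpha chain of the IL-2 receptor and a known STAT5 target, lay at 10.83 ± 0.15 with IL-7, against 11.33 ± 0.22 with IL-21 and 8.59 ± 0.29 in media control, and its direct difference of -0.50 did not pass (adjusted p = 0.13). Il4ra passed narrowly (-0.61, SE 0.17, adjusted p = 0.0398) and failed without any 1 of the 6 arrays, with adjusted p between 0.0860 and 0.152. Il2rb, Il15ra and Il9r differed by 0.13, -0.12 and 0.02, and Il9r was under background.

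Of 10 JAK kinases and STAT factors, 3 passed, and these were lower with IL-7: Stat5a (-0.98, SE 0.15), Stat3 (-0.72, SE 0.12) and Jak3 (-0.56, SE 0.11). Stat3 was at 10.84, 10.73 and 10.60 with IL-7, against 11.50, 11.51 and 11.31 with IL-21, with no overlap. Stat5a, the factor that IL-7 uses, was at 9.42, 9.37 and 7.44 with IL-7, against 10.63, 10.33 and 8.20 with IL-21. Its TRIzol replicate lay about 2 units lower in both groups, so the arrays overlapped while each of the 3 pairs differed by 0.76 to 1.22.

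**Figure D2:**
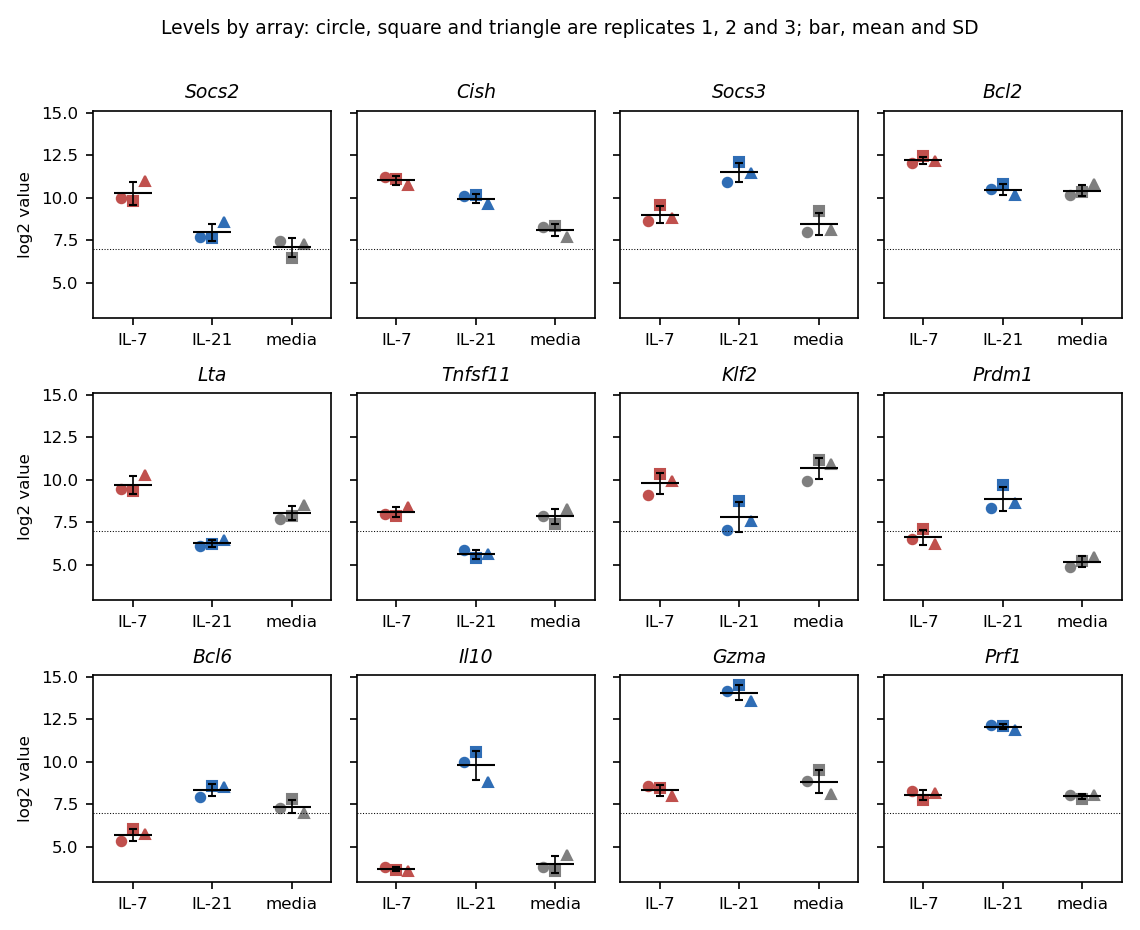
Levels (vertical axis, log2) of 12 genes in each array, with IL-7 at the left, IL-21 in the middle and media control at the right. Replicates 1, 2 and 3 have circles, squares and triangles, the bar gives mean and SD, and the dotted line is the background level. IL-7 arrays are above IL-21 arrays for Socs2, Cish, Bcl2, Lta, Tnfsf11 and Klf2 and below them for Socs3, Prdm1, Bcl6, Il10, Gzma and Prf1.

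Known STAT5 targets went in both directions, with 10 of 20 higher and 2 lower with IL-7 and a median of 0.28, against -0.01 over all genes. Lymphotoxin alpha (Lta), a TNF family cytokine, had the largest difference of the list. It was at 9.48, 9.34 and 10.29 with IL-7, against 6.09, 6.23 and 6.45 with IL-21 and 7.71, 7.87 and 8.52 in media control, a difference of 3.45 (SE 0.13, adjusted p = 1.39e-09). The IL-21 arrays were under background, so the size of the difference is not exact. The media control arrays lay between the 2 cytokines. Tnfsf11, which encodes RANKL, was at 8.01, 7.84 and 8.40 with IL-7, against 5.88, 5.37 and 5.62 with IL-21 and 7.88, 7.42 and 8.30 in media control (2.46, SE 0.17, adjusted p = 4.25e-07), so that among these 3 groups the IL-21 arrays were low, and under background. Bcl2, the apoptosis inhibitor, was at 12.02, 12.42 and 12.14 with IL-7, against 10.49, 10.78 and 10.13 with IL-21 and 10.13, 10.31 and 10.79 in media control (1.72, SE 0.25, 3.3-fold, adjusted p = 4.55e-04), so that among these 3 groups the IL-7 arrays were high; the means were 12.13 with IL-2 and 12.36 with IL-4. The 2 members lower with IL-7 were Il4ra and the cell cycle inhibitor Cdkn1a (-0.86, adjusted p = 0.0273). Cdkn1a did not pass without IL-7 replicate 1 or 2 and without IL-21 replicate 1 or 3 (adjusted p 0.0532 to 0.161). With 1 array left out at a time, 7 to 9 members were higher and 0 to 2 lower, and none was lower without IL-7 replicate 1, IL-7 replicate 2 or IL-21 replicate 1.

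Known STAT3 targets that passed all went one way. Of 19 measured, 15 were lower with IL-7 and none was higher, with a median of -1.10 (14 or 15 lower with any 1 array left out). The members were chosen with earlier results of these data known, so the count is no independent test. Averaged over all arrays, 10 of the 19 were above background. Il10, the cytokine that restrains inflammation, was at 3.84, 3.68 and 3.59 with IL-7, against 9.98, 10.56 and 8.83 with IL-21 and 3.83, 3.56 and 4.55 in media control. The difference of -6.09 (SE 0.37, adjusted p = 8.43e-08) starts from a level under background, so its size is not exact. Bcl6, a transcriptional repressor of follicular helper and memory T cells, was at 5.34, 6.04 and 5.75 with IL-7, against 7.96, 8.59 and 8.54 with IL-21 and 7.30, 7.80 and 7.02 in media control (-2.66, SE 0.29, adjusted p = 3.10e-05). Media control again lay between the 2 cytokines, and no group overlapped another. The IL-7 arrays of Bcl6 were under background. Il1r1, the IL-1 receptor, averaged 6.15 ± 0.25 with IL-7, against 8.78 ± 0.60 with IL-21, and Bcl3, a nuclear partner of NF-kB, averaged 8.09 ± 0.29 with IL-7, against 10.71 ± 0.28 with IL-21. These differences were -2.63 (SE 0.17) and -2.61 (SE 0.13). The IL-7 arrays of Il1r1 were under background, and its other probe set differed by -0.09. The 4 members that did not pass were Hif1a, Il24, Maf and Ccr6, named after their values were seen, with differences between -0.30 and 0.03.

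Cytotoxic effector genes were lower with IL-7 throughout those that passed. Of 22 measured, 12 were lower and none was higher, with a median of -0.76 and with 11 or 12 lower when any 1 array was left out. Gzma, the serine protease granzyme A, was at 8.58, 8.45 and 7.98 with IL-7, against 14.15, 14.50 and 13.58 with IL-21 and 8.86, 9.51 and 8.13 in media control (-5.74, SE 0.24, 53.4-fold lower with IL-7, adjusted p = 2.65e-09). Perforin (Prf1), which lets granzymes into the target cell, was at 8.31, 7.75 and 8.15 with IL-7, against 12.19, 12.13 and 11.89 with IL-21 and 8.08, 7.80 and 8.04 in media control (-4.0, SE 0.14, 16-fold lower, adjusted p = 6.49e-10). No IL-7 array came near an IL-21 array in either gene, and neither gene passed between IL-7 and media control (adjusted p = 0.171 and 0.672). The other of 2 probe sets of Prf1 differed by only -0.06. Gzmk, another granzyme, was at 6.32, 6.49 and 6.46 with IL-7, all under background, against 8.63, 9.94 and 9.42 with IL-21 (-2.91, SE 0.25). Gzmd had a difference of -3.64, but it is one of a cluster of near-identical granzymes whose probe sets may share signal, and it lay under background in 5 of the 6 arrays. Nkg7, a protein of cytotoxic granules, averaged 12.27 ± 0.12 with IL-7, against 13.06 ± 0.17 with IL-21 (-0.79, SE 0.08). Gzmb, granzyme B, which was chosen after its values were seen, did not pass: its means were 14.37 with IL-7, against 14.85 with IL-21 and 12.43 in media control (-0.48, SE 0.18, adjusted p = 0.135). Its level with IL-21 was above that of Actb (14.68), at the top of the scale, so equal levels cannot be read from this.

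Receptors shared with NK cells followed the same direction, with 4 of 17 lower and none higher with IL-7 (median -0.45). The inhibitory receptor gene Klrc1 (NKG2A) was at 8.52, 7.98 and 9.61 with IL-7, against 10.22, 10.22 and 10.91 with IL-21 (-1.75, SE 0.27), and Cd244a, Klre1 and Slamf7 differed by -1.70, -1.0 and -0.88. Cd244a was under background, Klre1 did not pass without IL-7 replicate 2 (adjusted p = 0.0604), and Slamf7 did not pass when IL-7 replicate 1 or 3, or IL-21 replicate 1 or 2, was left out (adjusted p 0.112 to 0.172). Among 14 inhibitory receptors and genes of exhausted T cells, 5 were lower and 2 higher with IL-7 (median -0.29). Havcr2, which encodes TIM-3, was at 5.27, 4.73 and 4.55 with IL-7, against 8.63, 8.62 and 8.04 with IL-21 and 4.82, 4.33 and 4.27 in media control (-3.58, SE 0.18, adjusted p = 1.68e-08). All IL-7 and media control arrays were under background. Entpd1, the ectoenzyme CD39, was at 6.72, 6.83 and 5.84 with IL-7, against 8.95, 9.09 and 6.99 with IL-21 (-1.88, SE 0.27). Its IL-7 arrays and IL-21 replicate 3 were under background. Tox, a transcription factor of exhausted T cells, went the other way, at 7.19, 7.17 and 6.92 with IL-7, against 6.04, 5.95 and 5.54 with IL-21 and 7.93, 7.86 and 7.45 in media control (1.25, SE 0.15, adjusted p = 8.25e-05).

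Among 22 cytokines, 5 were higher and 4 lower with IL-7. Besides Il10, the genes lower with IL-7 included interferon gamma (Ifng), at 8.01, 6.86 and 7.51 with IL-7, against 10.37, 10.60 and 9.59 with IL-21 and 7.01, 6.70 and 6.91 in media control (-2.73, SE 0.35, adjusted p = 1.31e-04). They also included Il18, at 7.56, 8.15 and 7.70 with IL-7, against 10.73, 11.29 and 10.45 with IL-21 and 9.0, 9.71 and 9.21 in media control (-3.02, SE 0.28). For Il18 the 9 arrays formed 3 groups without overlap. Of 13 TNF ligands, 6 were higher and 1 was lower with IL-7 (median 0.16; 4 or 5 higher with any 1 array left out). They included Lta and Tnfsf11, given above, and Tnfsf8, the ligand of CD30 (1.12, SE 0.15), while Tnfsf10, the death ligand TRAIL, was lower (-1.18, SE 0.15). The IL-21 arrays of Tnfsf8 were under background. The TNF receptor family had 1 of 22 higher, Tnfrsf13b (0.82), and 3 lower, among them the death receptor Fas (-1.01, SE 0.18, at 8.41 ± 0.20 with IL-7, against 9.42 ± 0.15 with IL-21). Over all genes, 4.06% were higher and 4.83% lower with IL-7.

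Of 13 chemokines, 4 were lower with IL-7 and 1 was higher. Ccl4, an inflammatory chemokine, was at 8.31, 8.12 and 9.76 with IL-7, against 12.17, 12.26 and 12.22 with IL-21 (-3.49, SE 0.34), and Ccl3 was at 7.82, 7.80 and 9.89 with IL-7, against 10.71, 10.92 and 11.29 with IL-21 (-2.47, SE 0.41). In both genes the third IL-7 array was the highest of its group and still under every IL-21 array. Ccl9 also was lower (-2.70, SE 0.49), from IL-7 arrays under background. Xcl1, a chemokine for cross-presenting dendritic cells, was higher with IL-7, at 9.52, 8.97 and 10.01, against 7.63, 7.49 and 8.43 with IL-21 and 10.74, 10.77 and 10.90 in media control (1.65, SE 0.28). Among 19 chemokine and related receptors, 3 were higher and 3 lower with IL-7. Averaged over the 18 arrays, 5 of the 19 were above background. Ccr2, with both group means under background, was lower with IL-7 (-0.82, SE 0.22, adjusted p = 0.0277). All 4 probe sets of Ccr2 were lower with IL-7, with differences from -3.76 to -0.82. The call of Ccr2 was lost without any 1 of the arrays except IL-21 replicate 1 (adjusted p 0.0702 to 0.161). Cxcr6, a receptor of tissue-homing T cells, was at 9.64, 9.70 and 10.26 with IL-7, against 12.01, 12.49 and 11.82 with IL-21 (-2.24, SE 0.31, adjusted p = 3.08e-04), while Ccr1 and Ccr4, both under background in every array here, differed by -1.69 and 0.92.

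Transcription factors of effector and memory T cells went both ways, with 8 of 31 lower and 5 higher with IL-7. Prdm1, which encodes the effector factor Blimp-1, was at 6.54, 7.11 and 6.24 with IL-7, against 8.36, 9.68 and 8.63 with IL-21 and 4.84, 5.24 and 5.46 in media control (-2.26, SE 0.23, adjusted p = 1.65e-05). The 3 groups did not overlap. Id2, a factor of effector cells, was at 10.54, 10.74 and 10.14 with IL-7, against 12.12, 12.47 and 12.20 with IL-21 (-1.79, SE 0.24), and its relative Id3, a factor of memory precursors, was at 9.88, 10.51 and 10.56 with IL-7, against 8.62, 8.10 and 9.06 with IL-21 and 10.52, 11.13 and 11.47 in media control (1.72, SE 0.23, adjusted p = 2.06e-04). Id2 and Id3 therefore lay on opposite sides of the comparison. Without IL-7 replicate 1 or IL-21 replicate 2, 5 of the list were lower; without IL-7 replicate 1, 2 or 3, 3 were higher, and without IL-21 replicate 3, 2 were higher.

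Genes of naive and memory quiescence were mostly higher with IL-7 where they passed, with 7 of 21 higher and 2 lower (median 0.16; 7 and 2 with any 1 array left out). Klf2, which maintains quiescence and lymph node recirculation, was at 9.10, 10.33 and 9.92 with IL-7, against 7.03, 8.76 and 7.58 with IL-21 and 9.94, 11.15 and 10.91 in media control (1.99, SE 0.27, adjusted p = 2.05e-04). Replicate 2 was the highest array of each group, and each of the 3 pairs differed by 1.57 or more. Dapl1 was at 11.49, 11.33 and 12.32 with IL-7, against 9.45, 9.02 and 10.27 with IL-21 and 12.62, 12.44 and 12.78 in media control (2.14, SE 0.18), and Klf3, a relative of Klf2, averaged 7.99 ± 0.31 with IL-7, against 6.46 ± 0.54 with IL-21 (1.53, SE 0.30).

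In the BCL2 family, 2 of 17 were higher and 3 lower with IL-7. The 2 higher genes both inhibit apoptosis: Bcl2, given above, and Bcl2l1, which encodes BCL-XL, at 9.27, 9.44 and 9.30 with IL-7, against 8.41, 8.68 and 8.35 with IL-21 (0.85, SE 0.17, adjusted p = 0.00489). Of 4 probe sets of Bcl2l1, 3 went in this direction, and the lowest difference was -0.30. Of the 3 genes lower with IL-7, the 2 named, Bad and Bcl2l11 (BIM), promote apoptosis, with differences of -0.61 (SE 0.10) and -0.62 (SE 0.16). The third had a smaller difference and is not named, since up to 4 passing members are named per list. No direction of the family as a whole is read from the named genes, and its median was -0.02. Bcl2l11 did not pass without IL-7 replicate 1 or 2 and without IL-21 replicate 1 or 2 (adjusted p 0.0536 to 0.15), and 1 gene of the family was lower without IL-7 replicate 2 and without IL-21 replicate 2. Among 8 caspases, the inflammatory Casp4 (-1.07, SE 0.13) and the executioner Casp6 (-0.90, SE 0.15) were lower with IL-7. Casp2 was higher (0.45), though not without IL-7 replicate 3 or IL-21 replicate 1 (adjusted p = 0.0554 and 0.0537).

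Of 42 genes of DNA replication and mitosis, 8 were higher and none lower with IL-7, and 39 had a positive difference (median 0.30). The mitotic kinase Aurkb averaged 10.62 ± 0.39 with IL-7, against 10.07 ± 0.29 with IL-21 (0.55, SE 0.14, adjusted p = 0.0248). This count rests on the full set of arrays: 3 members were higher without IL-7 replicate 1, 1 without IL-7 replicate 2 or 3, none without IL-21 replicate 1 or 2 and 6 without IL-21 replicate 3, and Aurkb had an adjusted p of 0.0511 to 0.134 in the 5 fits in which it was lost, those without IL-7 replicate 2 or 3 or without any 1 of the IL-21 arrays. Of 39 ribosome biogenesis genes, 6 were higher and none lower (median 0.21), among them Wdr12, a factor of the large subunit, at 10.42, 10.22 and 10.82 with IL-7, against 9.71, 9.33 and 10.10 with IL-21 (0.77, SE 0.09, adjusted p = 6.90e-05). Without IL-7 replicate 2 or IL-21 replicate 1 the count was 3, and without IL-21 replicate 2 it was 2. The MYC network had 1 of 12 higher and 1 lower with IL-7, beside 4.06% higher and 4.83% lower over all genes. Mxd1, an antagonist of MYC, was at 7.39, 7.61 and 7.08 with IL-7, against 9.92, 10.26 and 8.71 with IL-21 and 7.68, 8.53 and 8.34 in media control (-2.27, SE 0.25), while Myc itself differed by 0.53 (adjusted p = 0.013, but 0.0505 to 0.0636 without IL-7 replicate 1 or 3 or IL-21 replicate 1 or 2). Of 13 G1 cyclins, CDKs and their inhibitors, 2 were higher and 2 lower: the cyclin Ccnd2 (0.73) and the inhibitor Cdkn2c (0.46) were higher, and the inhibitors Cdkn2d (-0.98, SE 0.10) and Cdkn1a were lower. Ccnd2 was lost without IL-7 replicate 3 or IL-21 replicate 3 (adjusted p = 0.0608 and 0.0519), and Cdkn2c without any 1 of the arrays except IL-21 replicate 1 (adjusted p 0.0721 to 0.209).

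The counts of the metabolic lists stand beside the shares over all genes, of which 4.06% were higher and 4.83% lower with IL-7. Of 20 genes of cholesterol synthesis 1 was lower with IL-7 (median -0.27), of 17 of fatty acid synthesis 2 were lower (median -0.15), of 19 of glycolysis 1 was lower (median -0.02), and of 19 tRNA synthetases 1 was higher. The fatty acid elongase Elovl6 had the largest of these differences, at 9.89, 10.04 and 9.91 with IL-7, against 10.92, 11.40 and 11.01 with IL-21 and 9.36, 9.70 and 9.28 in media control (-1.16, SE 0.10, adjusted p = 3.65e-06), and all 3 groups were separate. The hypoxia list had 3 of 23 higher and 1 lower, with the histone demethylase Kdm3a at 0.65 (SE 0.09). The amino acid synthesis and ATF4 list had 2 of 29 higher and 3 lower (median -0.07), and with 1 array left out at a time 0 or 1 were higher and 1 or 2 lower. Single arrays also decided other small calls: Wars, the tRNA synthetase gene, was lost without any 1 of the 6 arrays (adjusted p 0.0632 to 0.0732), Sc5d of cholesterol synthesis without any 1 of the IL-7 arrays or IL-21 replicate 2 (0.0515 to 0.0880), Elovl1 without IL-7 replicate 1 or 2 or IL-21 replicate 1 or 2 (0.0698 to 0.112), and Epas1 of the hypoxia list without any 1 of the arrays except IL-7 replicate 3 (0.0529 to 0.121). The hypoxia list had 1 gene higher without IL-7 replicate 2 or 3 or IL-21 replicate 2.

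Of 44 interferon response genes, 4 were lower and 3 higher with IL-7, with a median of -0.01. Over all genes, 4.83% were lower and 4.06% higher with IL-7. Of the 4 lower genes, 3 encode related proteins, the antiviral membrane proteins Ifitm1, Ifitm2 and Ifitm3. Ifitm1 was at 8.97, 8.57 and 8.52 with IL-7, against 12.33, 12.91 and 12.30 with IL-21 and 10.34, 8.17 and 8.80 in media control (-3.83, SE 0.45, adjusted p = 6.05e-05). Ifitm3 was at 8.56, 7.81 and 8.31 with IL-7, against 10.94, 11.41 and 11.23 with IL-21 (-2.96, SE 0.39), and Ifitm2 was at 8.0, 8.70 and 7.89 with IL-7, against 10.60, 11.23 and 10.05 with IL-21 (-2.43, SE 0.30). None of the IL-7 arrays reached an IL-21 array in these genes. The fourth, the exonuclease Isg20, differed by -1.01. Of the 3 higher genes, Igtp had the largest difference and was named after its values were seen. Its means were 13.25 with IL-7, against 12.29 with IL-21 and 12.85 in media control (0.95, SE 0.12, adjusted p = 1.14e-04). Iigp1, given further on, is not in this list and was also higher with IL-7. No member passed among 8 GIMAP GTPases or 11 ERK phosphatases and Sprouty inhibitors. T cell receptor signalling had 1 of 21 higher, Nfatc1 (0.57), and 1 lower, the costimulatory receptor Icos (-0.74, SE 0.14). In each direction, 1 of 21 was near the share over all genes. Among 19 integrins and adhesion molecules 3 were lower, among them the ligand Icam1 (-0.72) and the beta 2 chain Itgb2 (-0.57), and 1 was higher, Itgb1 (0.42), which was lost without IL-7 replicate 2 or 3 and without IL-21 replicate 1 or 3 (adjusted p 0.0509 to 0.0723).

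**Figure D3:**
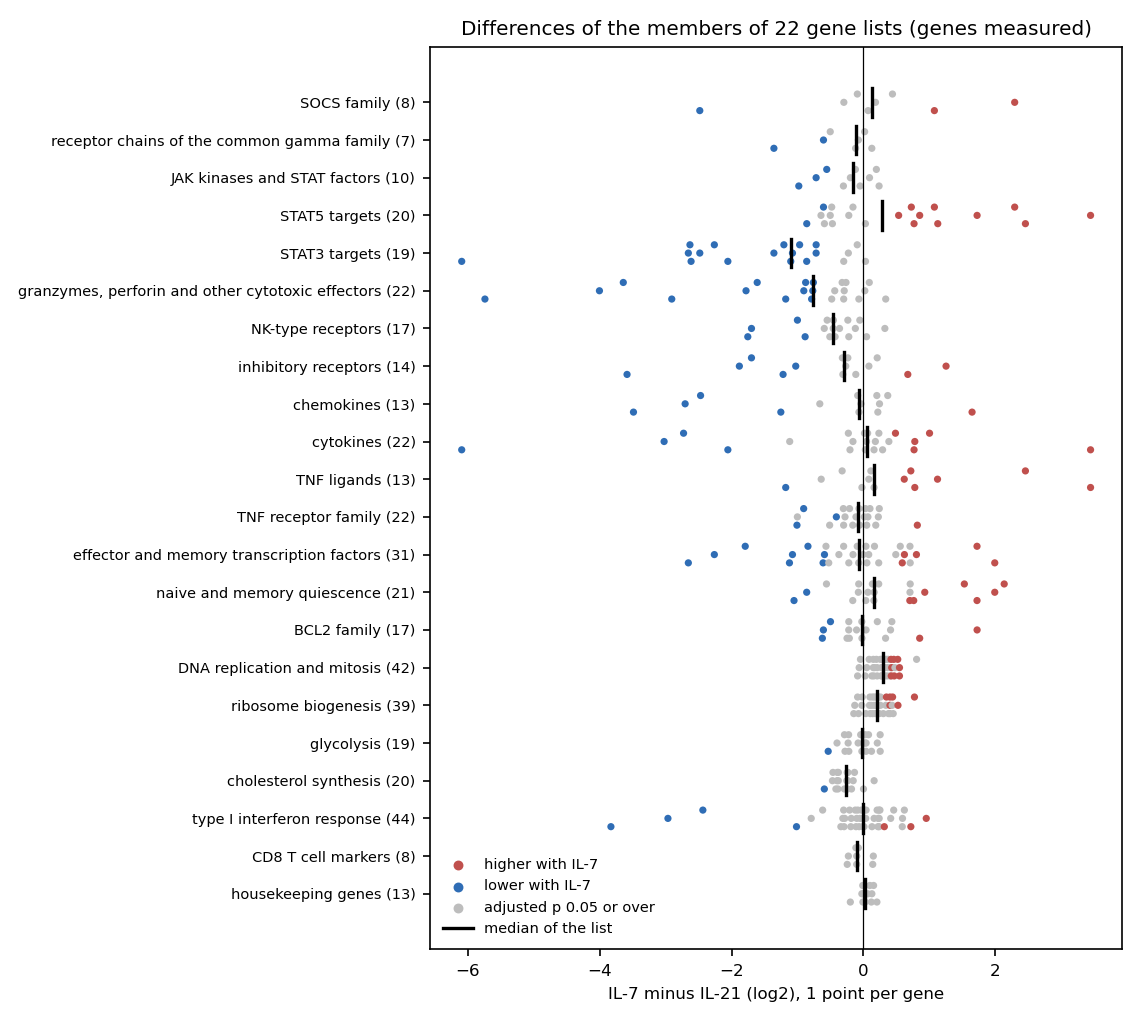
Difference between IL-7 and IL-21 (horizontal axis, log2) for each measured member of 22 gene lists (rows, with the number of genes). Red points are genes higher with IL-7, blue points are genes lower with IL-7, grey points did not pass, and the black bar is the median of the list. The STAT3 targets (median -1.10) and the cytotoxic effectors (median -0.76) lie to the left, and the housekeeping genes and CD8 T cell markers stay within 0.25 of 0. Lists and members were chosen with earlier results of these data known.

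Several of the largest differences lay outside these lists. Serpinb5, which encodes maspin, was at 4.54, 4.44 and 4.25 with IL-7, against 9.38, 9.22 and 8.95 with IL-21 (-4.77, SE 0.23, adjusted p = 1.00e-08). Another serpin gene, Serpinb1a, an inhibitor of neutrophil proteases, averaged 5.86 ± 0.39 with IL-7, against 10.01 ± 0.34 with IL-21 (-4.16, SE 0.33). Moxd1, a relative of dopamine beta-hydroxylase, was at 4.70, 4.87 and 4.95 with IL-7, against 9.46, 9.91 and 9.32 with IL-21 and 4.80, 4.93 and 4.84 in media control (-4.72, SE 0.13, adjusted p = 3.56e-11). In all 3 genes the IL-7 arrays were under background. Gcnt1, the enzyme that branches core 2 O-glycans of selectin ligands, was at 5.05, 5.19 and 4.52 with IL-7, against 8.84, 8.82 and 8.32 with IL-21 (-3.75, SE 0.17), and another glycosyltransferase gene, B4galnt4, was at 5.84, 6.45 and 5.88 with IL-7, against 10.30, 11.19 and 9.49 with IL-21 (-4.27, SE 0.22). The IL-7 arrays of Gcnt1 and B4galnt4 were under background too. The scaffold gene Frmd4b (-3.79), the secreted protein gene Crispld2 (-3.72) and 2900026A02Rik (-3.53) completed the 15 genes.

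On the side of IL-7, Drc1, known as a gene of ciliary dynein regulation, was at 8.54, 9.23 and 8.86 with IL-7, against 5.85, 5.04 and 4.86 with IL-21 and 4.89, 4.62 and 5.98 in media control (3.63, SE 0.57, adjusted p = 8.17e-04). Of these 3 groups only IL-7 was above background, and the mean with IL-2 was 7.75. Hemgn, known from blood progenitors, was at 8.86, 9.01 and 9.26 with IL-7, against 6.09, 4.71 and 6.16 with IL-21 and 8.75, 8.20 and 8.46 in media control (3.39, SE 0.26). Capn3, a calcium-dependent protease, was at 7.81, 8.22 and 7.57 with IL-7, against 4.96, 4.37 and 4.54 with IL-21 and 8.83, 9.23 and 8.03 in media control (3.25, SE 0.27). Gucy1a1, a subunit of the nitric oxide receptor guanylate cyclase, was at 8.31, 8.31 and 9.59 with IL-7, against 5.81, 5.31 and 6.01 with IL-21 and 8.95, 9.10 and 9.80 in media control (3.02, SE 0.24). In Hemgn, Capn3 and Gucy1a1 the IL-21 arrays were under background and those of IL-7 and media control were not. The means of Capn3 with IL-2 and IL-4 (6.29 and 6.95) and of Gucy1a1 with IL-4 (6.97) were also under background. Egr3, a factor induced by T cell receptor signals, was at 9.59, 9.11 and 9.57 with IL-7, against 7.34, 7.08 and 5.96 with IL-21 (2.63, SE 0.27), and Gpr34, a lysophospholipid receptor, averaged 7.15 ± 0.28 with IL-7, against 4.71 ± 0.28 with IL-21 (2.44, SE 0.31). The other of 2 probe sets of Egr3 differed by only 0.006. Iigp1, an interferon-inducible GTPase, differed by 2.16 (SE 0.51) and did not pass without IL-7 replicate 2 or 3 or IL-21 replicate 3 (adjusted p 0.0508 to 0.0782). Zfp608 (1.99), Nipa1 (1.95) and 1500009L16Rik (1.86) completed the 15 genes.

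**Figure D4:**
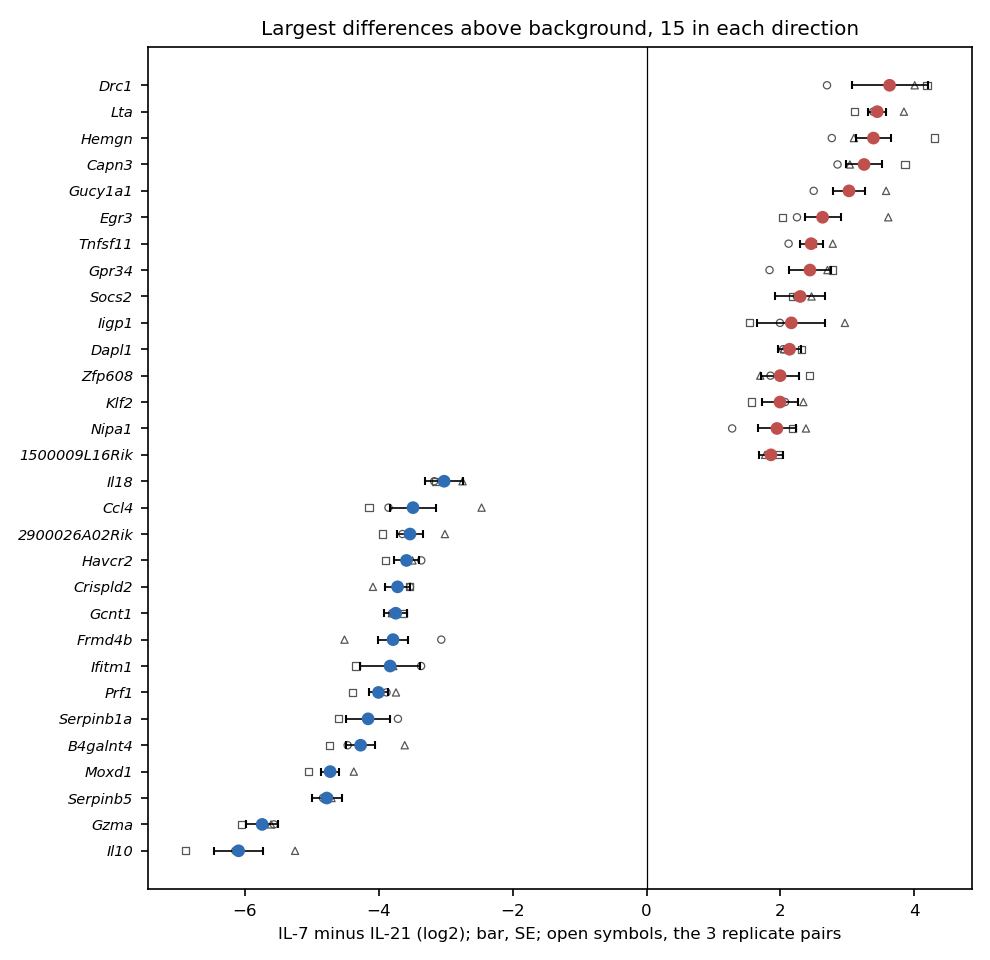
Difference between IL-7 and IL-21 (horizontal axis, log2) for the 15 largest differences in each direction (rows), among genes that passed, whose groups did not overlap and whose higher group mean was above background. Filled points and bars are the fitted difference and its SE, and open circles, squares and triangles are replicate pairs 1, 2 and 3. All 3 pairs of every gene shown lie on the same side of 0, which the choice of genes whose groups do not overlap fixes in advance.

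The levels of media control place these differences. Both comparisons with media control share its 3 arrays, and replicate 3 of these lies on the lower scale. IL-7 raised 1517 genes (8.34%) and lowered 1457 (8.01%) against media control, and IL-21 raised 1929 (10.6%) and lowered 1908 (10.5%). With the 3 arrays on the lower scale left out, IL-7 raised 1508 and lowered 1495 genes, and IL-21 raised 1902 and lowered 1987. Of the 879 genes lower with IL-7 than with IL-21, 603 were higher with IL-21 than in media control, 156 were lower with IL-7 than in media control and 148 passed in neither comparison. Of the 739 genes higher with IL-7 than with IL-21, 439 were lower with IL-21 than in media control, 170 were higher with IL-7 than in media control and 143 passed in neither. Without the 3 arrays, the counts were 601 and 150 for the genes lower with IL-7 and 430 and 166 for the genes higher.

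For 41 genes the 2 cytokines went in opposite directions from media control, 28 of them lower and 13 higher with IL-7 (26 and 14 genes without the 3 arrays). Il18 differed from media control by -1.50 with IL-7, against 1.52 with IL-21, Bcl6 by -1.67 with IL-7, against 0.99 with IL-21, and Dgat1, an enzyme of triglyceride synthesis, by -0.73 with IL-7, against 2.07 with IL-21. Lta differed by 1.67 with IL-7, against -1.78 with IL-21, and Gucy1b1, the partner subunit of Gucy1a1, by 1.03 with IL-7, against -0.95 with IL-21. Dgat1 and Gucy1b1 were chosen after their values were seen. Leaving out the 3 arrays kept all 5 genes in opposite directions past the test. Mxd1 was also among the 41 (-0.82 with IL-7, against 1.45 with IL-21), but not without the 3 arrays, where its difference with IL-7 was -0.51 (adjusted p = 0.138).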

How the data were processed

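RNA from 18 samples in 6 groups of 3 was hybridised to Affymetrix Mouse 430 2.0 arrays. The authors summarised each probe set by RMA on the log2 scale; per the labels' processing notes, Affymetrix GeneChip Command Console 3.1.1 and Expression Console 1.1 were used, and these log2 values were deposited. No columns of comparisons were used. Of 45101 probe sets, 34958 have 1 gene symbol in the annotation used here; 932 with several symbols and 9211 not listed were left out. The probe set with the highest mean stood for each of 18194 genes, of which 9182 have only 1. Other probe sets of a gene could differ less or the other way. Among others, 5 of 6 probe sets of Socs2, 5 of 7 of Klf3 and 2 of 3 of Wdr12 went in the direction given.

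All 18 arrays were quantile normalized again. limma 3.58.1 in R 4.3.3 fitted group means with the replicate number as a block (10 residual degrees of freedom, eBayes, two-sided), and p was adjusted over all genes by the Benjamini-Hochberg method, with a threshold of 0.05. Arrays with the same number deviated together after gene and group means were removed (45 pairs, lowest correlation 0.442, median 0.598, across genes; highest of 90 other pairs 0.383). The number thus marks a shared deviation, which the block takes up. Samples of 1 number share the extraction kit, and whether they also share cells, an extraction run or another batch was not tested. The background level was the 95th percentile of 40 tissue genes, of which Mbp, at 10.4 with IL-7, lies far above it.

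The members and lists were chosen with earlier results of these data known. Named genes were the 15 largest differences in each direction that passed, did not overlap and had a higher group mean above background, up to 4 passing members per list, all receptor chains and SOCS genes, and control genes. On simulated data for this comparison with 18194 genes, 91% of 100 genes changed by 1 and 100% of 100 changed by 2 on the log2 scale were recovered, with 12 false calls. Alternatives were another normalization, samples, probe set rule, filter, variance model and block, each extraction kit, and each array left out. With 3 arrays per group their number limits the precision. Figures were made with matplotlib 3.10.9 and tables with pandas 2.3.3 in Python 3.11.15.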

Additional observations from a re-analysis of the deposited data

How the results depend on the processing

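The counts of 739 genes higher and 879 lower with IL-7 depended on the scale of the arrays and on the pairing. Values as deposited gave 35 and 96, and, in an alternative chosen after seeing the data, 1521 and 1282 without the 3 arrays on the lower scale. Quantile normalized values without these 3 arrays gave 1361 and 1394, which hold all 739 and all 879 genes. Without the replicate block 145 and 263 genes passed, all of them among the 739 and 879, and 53 of the named genes lost their call, Socs2 and Cish among them. Of the genes that passed, 45.7% were higher with IL-7 as reported, 26.7% as deposited and 35.5% without the block. With 1 array left out at a time, 392 to 567 genes were higher and 544 to 752 lower. Median centring (863 and 711), the 6 arrays alone (853 and 960), trend and robust estimation (863 and 951), the RNeasy arrays alone (1055 and 1116), the mean of probe sets (709 and 813) and genes above background (958 and 853 of 8386) stayed within 1.5 times. No named gene that passed changed direction under any alternative. Of 113 named genes that passed, 79 did so whichever array was left out. RNeasy and TRIzol extraction can be compared only through the pairs, and the TRIzol pair alone has no test; in it the difference of 57 of the 130 named genes, 46 of them among the 113 that passed, lay more than 1 SD of the 3 pair differences from the value reported. The 3 arrays per group limit what small differences can pass: the median SE was 0.125.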

Other observations

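Genes of lysosomal proteolysis and of signalling that no list of the report held were among the 41 genes that the 2 cytokines moved in opposite directions from media control; they were picked after their values were seen. Ctsd and Ctsb, the lysosomal proteases cathepsin D and B, had levels of 10.51 and 11.06 with IL-7, against 11.72 and 11.98 with IL-21 and 11.15 and 11.43 in media control, with differences between the cytokines of -1.21 (SE 0.11) and -0.92 (SE 0.10). Myd88, the adaptor of IL-1, IL-18 and Toll-like receptors, was at 9.82 with IL-7, against 10.78 with IL-21 and 10.24 in media control (-0.96, SE 0.10). Its direction was that of Il18 and of Il1r1 in the report. The orphan receptor genes Gpr18 and Gpr171 differed by -1.66 (SE 0.12) and -1.33 (SE 0.11). On the other side, Dnmt3b, a DNA methyltransferase, was at 8.79 with IL-7, against 7.94 with IL-21 and 8.47 in media control (0.85, SE 0.09), and Ddc, an enzyme of amine synthesis, was at 7.80 with IL-7, against 6.35 with IL-21 and 7.10 in media control (1.45, SE 0.17). Without the 3 arrays on the lower scale, Gpr18 and Gpr171 no longer passed against media control with IL-7 (adjusted p = 0.0514 and 0.0683).

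The levels of the other cytokine groups were read for 4 genes that set IL-7 and IL-21 apart, as values without a test. Gzma averaged 13.71 with IL-4, 8.90 with IL-2 and 9.16 with IL-15. Lta averaged 11.72 with IL-2, 7.21 with IL-4 and 7.97 with IL-15. Socs2 averaged 11.05 with IL-2, 9.02 with IL-4 and 8.11 with IL-15. Il10 averaged 4.70 with IL-2, 4.23 with IL-4 and 3.99 with IL-15, all under background, so that among the 5 cytokines its mean was above background with IL-21 alone.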
